A study of Homo sapiens with 36 samples.

Results

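Chromatin-bound RNA was compared between the DIS3-AID clone and its control line after both had received auxin. The comparison used 6 of the 36 libraries of the series: 3 of the control line and 3 of the DIS3-AID clone, chosen by their labels as chromatin fraction with 1 h of auxin. All cells were derivatives of HCT116, a human colon carcinoma line. The control line expressed TIR1, the plant receptor that recruits auxin-bound degron proteins to a ubiquitin ligase. The DIS3-AID line, a CRISPR clone of HCT116 with constitutive TIR1, has DIS3 fused to the auxin-inducible degron (AID). Both lines received 500 uM auxin for 1 h before RNA extraction, so both sides shared TIR1 and auxin and differed in the tag on DIS3 and in whatever else separates a clone from its control line. Libraries were made from ribosomal RNA-depleted total RNA with a stranded kit. The same lines without auxin (3 chromatin libraries each) gave a line difference that shares no library with the one under auxin, and it is given beside the results. Nothing in the labels says that the 3 libraries of a group came from separate cultures, and the p-values therefore reflect the scatter among these particular libraries, which may be technical.

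DIS3 is a catalytic subunit of the nuclear RNA exosome, the complex that degrades RNA from the 3′ end. The exosome trims the ends of small nuclear and nucleolar RNAs, removes failed or surplus copies of them, and destroys short-lived transcripts such as the divergent RNAs made upstream of coding promoters. A degron tag allows the protein to be removed within the lifetime of many of these RNAs, and the chromatin fraction holds nascent transcripts and RNAs retained at the DNA.

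The 6 libraries held 50.3 to 74.0 M counts (M stands for 1000000). Levels are given as counts per 1000000 (CPM) after TMM scaling, with factors between 0.969 and 1.035 over the 12 chromatin libraries. The fraction was checked on RNAs of known location: the nuclear lncRNA MALAT1 lay at 3008 to 4309 CPM in the 12 chromatin libraries and at 814 to 960 CPM in the 12 cytoplasmic ones, and the cytoplasmic mRNA GAPDH at 56.6 to 77.4 CPM and 3028 to 3599 CPM, each scaled by library size alone. Of 20 colon epithelial markers 14 reached the tested level, while OLFM4, KRT20, LGALS4, CEACAM5, CEACAM6 and CDX1 were near 0. Markers of blood cells summed to 0.246 to 0.364 CPM in the 6 libraries, with MS4A1 and CD3D at 0.

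DIS3 (ENSG00000083520.14, chr13:72752169-72782096 on hg38, minus strand) checks the labels of the lines. Its RNA stood at 60.8, 62.1 and 52.1 CPM in the control line and at 31.0, 33.1 and 37.5 CPM in the DIS3-AID clone, both with auxin. Every control library was above every DIS3-AID library, and the log2 difference was -0.79 (SE 0.083, adjusted p = 6.15e-07 by edgeR's quasi-likelihood test with Benjamini-Hochberg adjustment, used throughout). The difference was already present without auxin (log2 -0.70, adjusted p = 4.22e-06), and the line difference did not change detectably with auxin (log2 change -0.09, adjusted p = 0.655). The RNA of the tagged gene was therefore lower in the clone at both states, and it is no measure of how much DIS3 protein was left.

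Across the 24966 features tested of 59607, 9802 (39.3%) differed between the lines under auxin at adjusted p < 0.05. Of these, 4709 (18.9%) were higher in the DIS3-AID clone and 5093 (20.4%) lower. At a difference of at least 2-fold the balance was the other way: 1111 features (4.45%) were higher and 529 (2.12%) lower. The 1111 include features at low levels, such as C1orf21-DT, that were tested only because the DIS3-AID libraries with auxin were high. How far the filter sets this balance was not tested. The 3 libraries of one line did not overlap with the 3 of the other for 11477 features (46.0%). In bulk libraries like these, fewer cells of a type and less RNA per cell cannot be told apart.

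The same lines differed widely without auxin as well, where 8120 features (32.5%) were called, 3785 (15.2%) higher and 4335 (17.4%) lower, of which 352 (1.41%) and 281 (1.13%) were at least 2-fold apart. Of the features higher under auxin 1594 were also higher without it, which is 33.9% of the former list and 42.1% of the latter. For the lower features the shared number was 2338, or 45.9% and 53.9%. Among those at least 2-fold higher under auxin 149 (13.4%) were called at least 2-fold higher without it, and 512 features were called in opposite directions. The difference between the line differences was called for 4429 features (17.7%), 2131 (8.54%) more positive and 2298 (9.2%) more negative under auxin, and 557 (2.23%) and 283 (1.13%) of them by at least 2-fold. This last test asks whether the lines responded differently to auxin, and its values are quoted below as the change in the line difference with auxin.

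**Figure D1:**
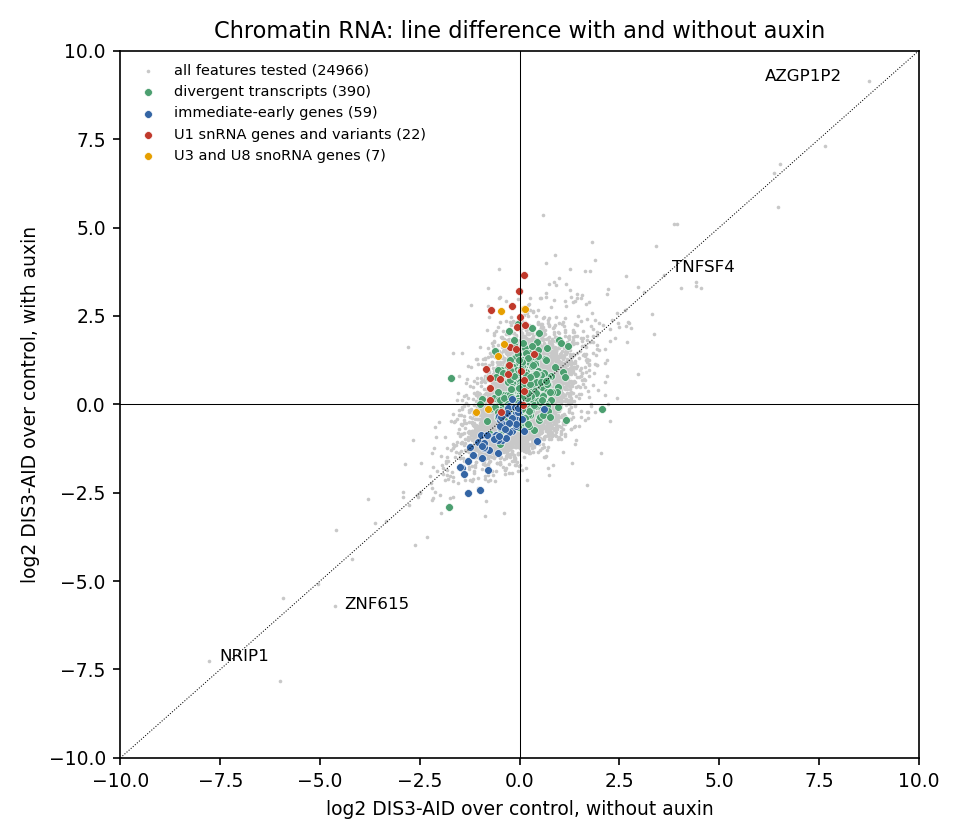
Line difference (log2, DIS3-AID over control) of every tested feature without auxin on the x axis and with auxin on the y axis, chromatin fraction, with 4 lists coloured and a dotted line at equality. Genes such as NRIP1 and TNFSF4 lie near the line, and the U1 variants RNVU1-22 and RNVU1-14 lie near 0 without auxin and at 3.65 and 3.21 with it.

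The classes of RNA differed in direction. Of 1005 tested assembled loci, transcribed regions outside the annotation that carry only a locus number, 670 (66.7%) were higher in the DIS3-AID clone and 21 (2.09%) lower, with a median log2 difference of 0.90 against -0.01 over all features. Their summed level was 6951, 7235 and 6777 CPM in the control line and 8443, 8879 and 9126 CPM in the clone. Whether these loci were assembled from the same libraries is not given in the sources used here, so whether their direction is independent of how they were found is not known. Long non-coding RNAs were higher more often than lower (1352, or 26.1%, against 683, or 13.2%, of 5185). Protein-coding genes showed the reverse (2182, or 14.9%, against 4008, or 27.4%, of 14642). Without auxin, 153 assembled loci (15.2%), 815 lncRNAs (15.7%) and 2458 coding genes (16.8%) were called higher. The lower calls without auxin were 66 (6.57%), 680 (13.1%) and 3203 (21.9%), so lower coding genes outnumbered higher ones in that state too.

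U1 small nuclear RNA genes had the largest share of higher members among the gene lists examined (77.3%). U1 is the spliceosomal RNA that pairs with the 5′ splice site, and the human genome holds, besides the canonical copies, many variant genes (RNVU1) with altered sequence. Of 30 U1 genes and variants 22 were tested, and 17 were higher in the DIS3-AID clone under auxin, against 18.9% of all features. Of the 17, 11 were at least 2-fold higher, and the median log2 difference of the list was 1.05. The lowest group mean of a tested member under auxin was 0.0584 CPM. Members at such levels can be tested only because another group was high, and the higher count can include them. Without auxin none of the 22 was called higher by edgeR (0 at an unadjusted p under 0.05, 0 by DESeq2), 2 were lower, and the median was -0.14. The summed level of the 30 genes was 17.6, 19.2 and 16.3 CPM in the control libraries and 32.5, 38.8 and 41.8 CPM in the DIS3-AID libraries.

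The canonical copy and the 4 variants with the largest difference are printed to show how far their sequences depart from each other, as annotated in GENCODE 29 on GRCh38, each 5′ to 3′ in DNA letters. In RNU1-1 (chr1:16514122-16514285, minus strand) the capitals mark the stretch that pairs with the 5′ splice site; in the others they mark bases that differ from RNU1-1 in a global alignment.
RNU1-1: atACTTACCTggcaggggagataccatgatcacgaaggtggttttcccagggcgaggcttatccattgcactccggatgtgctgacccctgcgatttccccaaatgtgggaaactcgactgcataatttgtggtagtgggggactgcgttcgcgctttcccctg
RNVU1-22: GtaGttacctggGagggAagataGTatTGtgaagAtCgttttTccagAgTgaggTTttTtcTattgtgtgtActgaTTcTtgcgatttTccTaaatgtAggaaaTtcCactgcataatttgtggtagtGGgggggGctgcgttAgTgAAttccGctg
RNVU1-14: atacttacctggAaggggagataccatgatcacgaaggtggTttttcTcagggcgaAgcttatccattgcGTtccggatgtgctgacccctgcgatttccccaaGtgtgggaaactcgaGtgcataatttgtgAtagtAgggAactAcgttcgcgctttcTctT
RNVU1-34: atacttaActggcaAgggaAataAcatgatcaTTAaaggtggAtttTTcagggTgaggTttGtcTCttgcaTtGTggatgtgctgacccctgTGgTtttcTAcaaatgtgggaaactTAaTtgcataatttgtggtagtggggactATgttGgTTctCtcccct
RNVU1-25: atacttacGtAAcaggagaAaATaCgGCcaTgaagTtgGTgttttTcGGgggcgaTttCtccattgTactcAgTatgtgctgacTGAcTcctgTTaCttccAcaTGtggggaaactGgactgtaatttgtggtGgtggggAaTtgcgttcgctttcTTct

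RNVU1-22 (chr1:148263476-148263632, plus strand, 157 bases) had the largest difference of the list. Its level was 0.13, 0.314 and 0.139 CPM in the control line and 2.24, 2.34 and 3.09 CPM in the DIS3-AID clone. The log2 difference was 3.65 (SE 0.23, adjusted p = 8.7e-10), against 0.10 without auxin (adjusted p = 0.859), and the change with auxin was 3.55 (adjusted p = 2.8e-05). Its sequence keeps 123 bases of RNU1-1 (75.0% identity), with 31 substitutions, 3 added and 10 missing bases, and lacks an exact copy of the splice site pairing stretch.

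RNVU1-14 (chr1:145281116-145281279, plus strand, 164 bases) is closer to the canonical gene, with 150 identical bases (91.5%) and the pairing stretch intact. It stood at 0.608, 0.806 and 0.478 CPM in the control line and at 4.47, 6.62 and 6.94 CPM in the DIS3-AID clone, a log2 difference of 3.21 (SE 0.20, adjusted p = 1.12e-09) against -0.02 without auxin. The lncRNA AC245014.3 shares an exon with it on the same strand and showed 0.869, 1.05 and 0.737 CPM against 6.68, 9.11 and 9.2 CPM. How reads in the overlap were assigned is not given in the sources used here, so these are not separate results.

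RNVU1-34 (chr17:58679527-58679690, minus strand), with 80.5% identity, was at 0.203, 0.301 and 0.139 CPM in the control line and 1.03, 1.63 and 2.05 CPM in the clone (log2 2.79, SE 0.29). RNVU1-25 (chr1:146409903-146410062, plus strand), with 75.0% identity, was at 0.174, 0.164 and 0.239 CPM and 0.977, 1.12 and 1.53 CPM (log2 2.66, SE 0.24). In all 4 variants the lowest DIS3-AID library exceeded the highest control library by more than 3-fold. The remaining called members ranged from RNVU1-27 (log2 2.48, adjusted p = 1.73e-09) down to RNVU1-32 (log2 0.37) and included the canonical gene RNU1-4 (1.42).

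The canonical RNU1-1 and RNU1-2 were not called. RNU1-1 stood at 0.362, 0.669 and 0.398 CPM in the control line and 0.647, 0.605 and 0.764 CPM in the DIS3-AID clone (log2 0.47, adjusted p = 0.151), and the 2 groups overlapped. RNVU1-31 was called lower (log2 -0.22, adjusted p = 0.05), a call that was lost in 9 of the alternative analyses, among them without control library 1 or 2 and without DIS3-AID library 1 or 2. How reads that fit several near-identical copies were assigned is not given in the sources used here, so the split between copies is uncertain.

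The U3 and U8 snoRNAs, box C/D RNAs needed for cleavage of the ribosomal RNA precursor rather than its methylation, were higher in the same way. All 7 records of these genes were tested. Under auxin 5 were higher and none was lower by edgeR (0 at an unadjusted p under 0.05, 0 by DESeq2). The median log2 difference was 1.70, against -0.47 without auxin. Of the 5 higher records, 2 are overlapping records of SNORD3D with the same counts under auxin (38 and 232), so they are not separate results. A U3 copy on chromosome 17 (ENSG00000212195.2) was at 0.666, 0.929 and 0.816 CPM in the control line and 4.56, 5.52 and 6.63 CPM in the clone (log2 2.78, SE 0.18, adjusted p = 1.14e-09, without auxin -0.25). SNORD3D was at 0.174, 0.232 and 0.179 CPM and 0.922, 1.13 and 1.82 CPM in 1 of its 2 overlapping records (log2 2.69, SE 0.32). The abundant U3 gene SNORD3A did not follow: it was at 88.1, 60.0 and 50.2 CPM in the control libraries and 53.2, 56.7 and 60.4 CPM in the DIS3-AID libraries (log2 -0.22, adjusted p = 0.411). How reads that fit several near-identical U3 copies were assigned is not given in the sources used here, so the split between these copies is uncertain. SNORD3A sets the sum of the list, which overlapped between the lines (52.3 to 90.5 CPM against 60.0 to 70.9 CPM).

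SNORD118, the U8 snoRNA needed for maturation of the large ribosomal subunit RNAs, is printed with its conserved elements in capitals, box C (TGATGA, from base 55) and box D (CTGA, from base 130). The letters CTGA also occur from base 116, and only the copy nearest the 3′ end is in capitals. The gene lies at chr17:8173454-8173587 on the minus strand and has 134 bases in GENCODE 29.
SNORD118: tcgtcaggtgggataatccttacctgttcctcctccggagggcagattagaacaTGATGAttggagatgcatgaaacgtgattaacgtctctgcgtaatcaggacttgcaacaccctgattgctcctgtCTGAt

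SNORD118 stood at 0.579, 0.505 and 0.538 CPM in the control line and at 2.55, 3.55 and 4.15 CPM in the DIS3-AID clone. The log2 difference was 2.64 (SE 0.20, adjusted p = 8.98e-09) against -0.47 without auxin, a change of 3.12 (adjusted p = 8.95e-06). The gene overlaps the end of TMEM107, a ciliary membrane protein gene, which was at 3.2, 2.72 and 2.91 CPM in the control line and 5.71, 7.03 and 7.84 CPM in the clone (log2 1.22). How reads common to both were counted is not given in the sources used here, so these are not separate results.

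**Figure D2:**
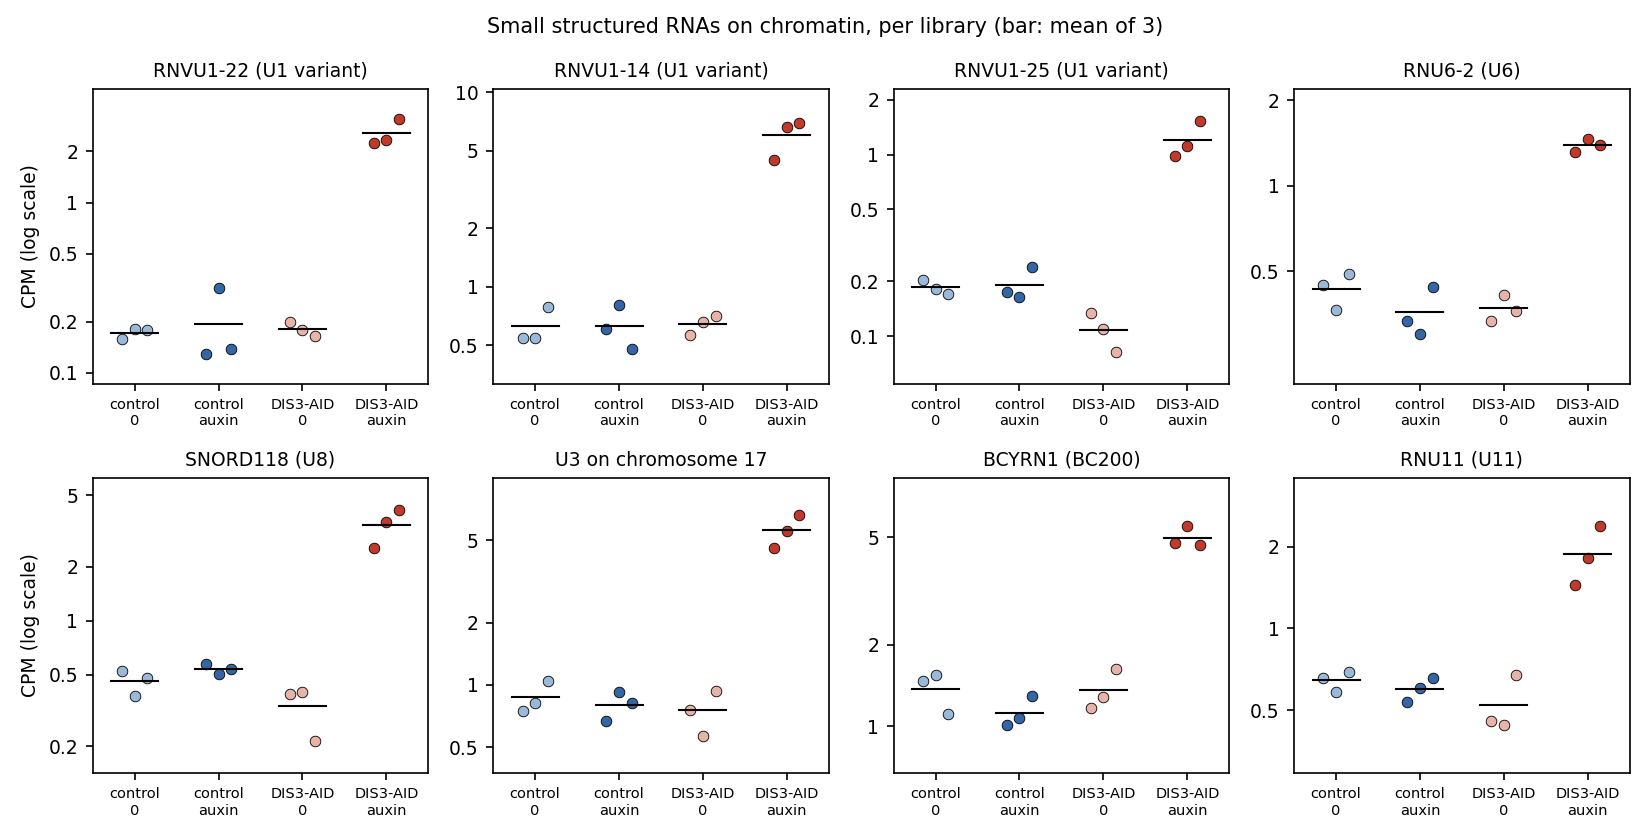
Level (CPM, log scale) of small RNA genes in each of the 12 chromatin libraries, by line and auxin, with a bar at the mean of 3. The label 0 means without auxin. In all 8 panels the 3 DIS3-AID libraries with auxin stand above the other 9 libraries.

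Other spliceosomal RNAs split. Of 13 tested members 5 were higher and 2 lower under auxin, while without auxin none was higher by edgeR (0 at an unadjusted p under 0.05, 0 by DESeq2) and 7 were lower. RNU6-2, one of the U6 genes, was at 0.333, 0.301 and 0.438 CPM in the control line and 1.31, 1.46 and 1.39 CPM in the clone (log2 1.98, SE 0.18, adjusted p = 1.13e-07). RNU11, of the minor spliceosome, was at 0.536, 0.601 and 0.657 CPM and 1.45, 1.82 and 2.38 CPM (log2 1.65), and RNU5F-1, a U5 variant, showed a log2 difference of 1.66. The U4 gene RNU4-2 went the other way, with 8.33, 5.72 and 5.97 CPM in the control line and 3.44, 2.99 and 2.59 CPM in the clone (log2 -1.15, adjusted p = 6.15e-05), and RNU4-1 had a similar value (-1.08). These 2 U4 genes are near-identical, and the split of reads between them is uncertain in the same way. RNU4-2 was also lower without auxin (-0.69), in the same direction as with it.

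Among structured RNAs made by RNA polymerase III, 3 of 10 tested were higher and 1 lower. BCYRN1, a small cytoplasmic RNA related to Alu elements, was at 1.01, 1.07 and 1.29 CPM in the control line and 4.76, 5.52 and 4.69 CPM in the DIS3-AID clone (log2 2.16, SE 0.15, adjusted p = 2.32e-09), against -0.01 without auxin. The vault RNA VTRNA1-3 (log2 1.44) and the signal recognition particle RNA RN7SL3 (0.59) were also higher. For RN7SL3 the lines overlapped (13.4, 10.4 and 9.44 CPM against 21.5, 15.4 and 13.1 CPM). RN7SK, which holds the elongation factor P-TEFb inactive, was lower, at 287, 232 and 223 CPM against 188, 201 and 193 CPM (log2 -0.35). It was lower without auxin too (-0.29, adjusted p = 0.0118), and the change with auxin was not called (-0.06, adjusted p = 0.763).

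The same small RNAs were also measured in the cytoplasmic total RNA of these lines under auxin, a separate set of libraries. There RNVU1-22 stood at 2.88, 2.34 and 2.73 CPM in the control line and 37.9, 38.1 and 34.1 CPM in the DIS3-AID clone. The chromosome 17 U3 copy stood at 6.36, 5.6 and 5.52 CPM and 71.0, 70.5 and 65.2 CPM, and SNORD118 at 3.19, 2.59 and 2.29 CPM and 16.1, 16.0 and 14 CPM, all scaled by library size. The study's design text names the cytoplasmic triplicates as technical, so no test is given for them.

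The intron-encoded snoRNAs that guide RNA modification differed little under auxin. Of 135 tested box C/D snoRNAs, which guide methylation, 30 (22.2%) were higher and 11 (8.15%) lower, with a median of 0.04. Of 124 box H/ACA snoRNAs, which guide pseudouridylation, 14 (11.3%) were higher and 18 (14.5%) lower, with a median of 0.00. The higher shares lay near or below the 18.9% of all features. Without auxin 3 C/D snoRNAs were higher and 24 (17.8%) lower, with a median of -0.12. Of the H/ACA snoRNAs 1 was higher and 30 (24.2%) lower, with a median of -0.14, against 17.4% of all features lower. The change with auxin was positive for 20 C/D (14.8%) and 9 H/ACA snoRNAs (7.26%), against 8.54% of all features. It was negative for 1 and 2. The largest values were SNORD23 (log2 1.23), SNORD4B (1.11), SNORD36 (-1.10), SNORD14B (1.03) and, among H/ACA RNAs, SNORA78 (1.08), SNORA50C (0.88), SNORA11B (0.87) and SNORA69 (0.69). The lower counts rested on single libraries: without control library 1 the H/ACA count was 7 and without DIS3-AID library 1 it was 9, and the C/D count was 6 without control library 2 or DIS3-AID library 1 and 19 without control library 3. Of 23 small Cajal body RNAs, which guide modification of the snRNAs, none was higher by edgeR (1 at an unadjusted p under 0.05, 0 by DESeq2, 1 without control library 1 or 2) and 4 were lower, led by SCARNA10 (-0.62). Without DIS3-AID library 1 the lower count was 2.

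Divergent transcripts, the lncRNAs annotated head to head with a coding gene and named with the suffix DT, are classic substrates of the nuclear exosome. Of 578 in the list 390 were tested; 179 (45.9%) were higher in the DIS3-AID clone under auxin, against 18.9% of all features, and 30 (7.69%) were lower. The median log2 difference was 0.37, with 53 members at least 2-fold higher and 2 at least 2-fold lower. The lines did not overlap for 235 of the 390 (60.3%), against 46.0% of all features. Of the 179 higher members, 88 had a mean under 1 CPM in the control line. Some members at low levels were tested only because the DIS3-AID libraries with auxin were high, and the higher count includes them. Without auxin 69 members were higher and 42 lower, with a median of 0.07. Of the 179, 40 were also higher without auxin and 5 were lower. Among the 390, the change with auxin was called positive for 100 (25.6%, against 8.54% of all features). It was called negative for 21 (5.38%, against 9.2%).

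The coding genes beside them had shares near those of all coding genes: in 379 pairs with a tested coding partner, the partner was higher in 49 (12.9%) and lower in 115 (30.3%), against 14.9% and 27.4% of all coding genes. The transcript had a larger log2 difference than its partner in 320 of the 379. The transcripts had a median of 0.39 and the partners of -0.07. In the 178 pairs whose transcript was higher, 31 partners were higher, 37 lower and 110 not called. In the 27 pairs whose transcript was lower, 17 partners were lower too and 1 was higher.

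C1orf21-DT had the largest positive difference of the list. Its level was 0.0724, 0.109 and 0.119 CPM in the control line and 0.523, 0.454 and 0.451 CPM in the clone (log2 2.26, SE 0.29, adjusted p = 7.11e-06, without auxin -0.03), while its coding neighbour C1orf21 showed -0.09 (adjusted p = 0.332). JTB-DT was at 0.0724, 0.041 and 0.0796 CPM and 0.275, 0.416 and 0.174 CPM (log2 2.16, SE 0.43), and JTB, encoding a transmembrane protein, showed 0.01 (adjusted p = 0.927). FCHO2-DT was at 0.029, 0.0546 and 0.0597 CPM and 0.22, 0.227 and 0.156 CPM (log2 2.07, SE 0.48), and FCHO2, an endocytosis gene, showed 0.19 (adjusted p = 0.0459). These levels rest on few reads, and in each of the 3 the lines did not overlap. C1orf21-DT and FCHO2-DT reached the level needed for testing only in the DIS3-AID libraries with auxin.

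EXO5-DT was the member with the largest negative difference, at 0.188, 0.178 and 0.299 CPM in the control line and 0.0275, 0 and 0.0521 CPM in the clone (log2 -2.90, SE 0.57, without auxin -1.77). Its partner EXO5, a single-strand DNA exonuclease gene, was lower as well (-3.98, adjusted p = 4.49e-05). Some members at higher levels, picked after their values were seen, were CAMSAP1-DT at 8.74, 9.21 and 8.72 CPM against 16.5, 17.6 and 18.6 CPM (log2 0.98, partner -0.17) and CDC20-DT at 5.46, 5.48 and 5.12 CPM against 13.1, 13.5 and 12.6 CPM (log2 1.29). GAS6-DT (1.24) moved together with GAS6 (1.22).

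The promoters of 3 of these transcripts, from RefSeq's table on GRCh38.p14, are printed to show the shared base composition of the starts from which transcript and gene run apart. Each runs from 250 bases before to 50 bases after the start on the strand of the divergent transcript, and overlaps the matching window of the coding partner by 171 bases for EXO5-DT (chr1:40508646-40508945, minus strand), 168 for JTB-DT (chr1:153977493-153977792, plus strand) and 256 for FCHO2-DT (chr5:72955835-72956134, minus strand). Capitals mark the only matches of the CCAAT box (CCAAT), GC box (GGGCGG) and TATA box (TATAAA), searched on both strands: a GC box read on the other strand.
EXO5-DT promoter: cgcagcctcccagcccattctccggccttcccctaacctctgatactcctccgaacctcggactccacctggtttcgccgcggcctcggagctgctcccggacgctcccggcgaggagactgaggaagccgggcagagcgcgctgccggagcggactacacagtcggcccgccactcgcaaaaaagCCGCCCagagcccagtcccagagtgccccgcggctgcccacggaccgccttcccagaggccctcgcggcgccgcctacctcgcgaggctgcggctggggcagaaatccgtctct
JTB-DT promoter: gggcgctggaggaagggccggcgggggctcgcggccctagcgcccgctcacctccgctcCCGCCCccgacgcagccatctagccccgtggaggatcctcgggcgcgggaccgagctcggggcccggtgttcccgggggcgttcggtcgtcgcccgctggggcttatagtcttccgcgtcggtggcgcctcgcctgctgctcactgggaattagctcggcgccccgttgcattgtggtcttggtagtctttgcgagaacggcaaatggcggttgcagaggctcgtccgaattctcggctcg
FCHO2-DT promoter: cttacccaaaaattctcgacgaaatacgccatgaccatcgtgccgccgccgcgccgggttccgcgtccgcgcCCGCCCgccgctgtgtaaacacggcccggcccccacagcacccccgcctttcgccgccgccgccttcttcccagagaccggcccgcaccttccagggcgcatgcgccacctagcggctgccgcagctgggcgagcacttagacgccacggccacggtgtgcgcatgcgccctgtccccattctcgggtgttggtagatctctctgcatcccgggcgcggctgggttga

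The 3 windows hold 33, 39 and 39 CG dinucleotides, more than 82.8%, 91.3% and 91.3% of the 35116 promoters in the table. Each has 1 GC box, which 45.0% of all promoters have, and none has the CCAAT box (34.6% of all) or the TATA box (11.5%). A match is a description of the letters, not a site or a cause, and both the transcripts that were higher and EXO5-DT had the same matches.

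**Figure D3:**
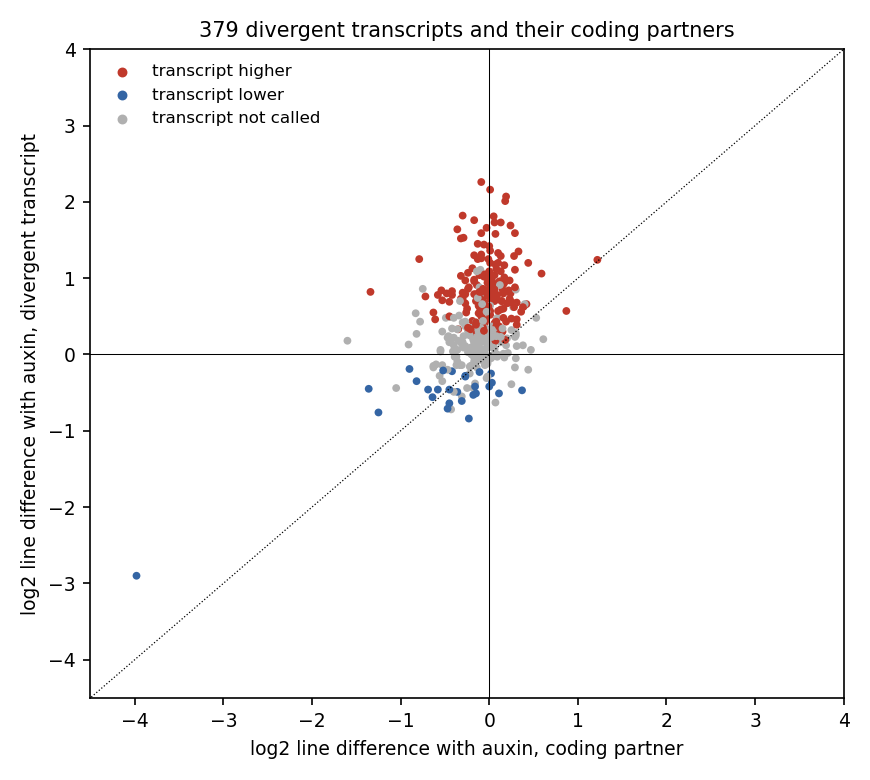
Log2 difference under auxin (DIS3-AID over control) of divergent transcripts on the y axis and of their coding partners on the x axis, 379 pairs, coloured by the call of the transcript. Points lie above the dotted line of equality in 320 pairs, and the point at the lower left is EXO5-DT with EXO5.

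Antisense lncRNAs, made from the strand opposite a gene, were also higher more often than lower. Of 862 tested antisense lncRNAs 293 (34.0%) were higher and 116 (13.5%) lower, with a median of 0.23. The largest difference was that of SETD4-AS1, with 0.029, 0.0273 and 0.0199 CPM in the control line and 0.22, 0.189 and 0.208 CPM in the clone (log2 2.92, SE 0.47, without auxin -0.33). ZNF433-AS1 was lower, at 1.87, 1.87 and 1.47 CPM against 0.358, 0.284 and 0.226 CPM (log2 -2.57), and was lower without auxin too (-1.99). SLCO4A1-AS1 (2.88) and CDH13-AS2 (2.76) were the other large values. SETD4-AS1 and CDH13-AS2 reached the level needed for testing only in the DIS3-AID libraries with auxin, and SLCO4A1-AS1 only in the DIS3-AID line. The higher count thus includes features that were tested because they were high there. The intergenic LINC genes lay at the background, with 127 (21.2%) higher and 116 (19.4%) lower of 598 and a median of 0.03.

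Host transcripts of microRNAs, the precursors cut by Drosha, were higher in 21 of 44 tested (47.7%) and lower in 5 (1 without control library 2 or DIS3-AID library 2, and 2 without control library 1). MIR378D2HG was at 3.59, 4.23 and 4.28 CPM in the control line and 9.84, 10.1 and 8.83 CPM in the clone (log2 1.25, SE 0.088, adjusted p = 3.77e-09, without auxin -0.20). MIR762HG (1.02) and MIR503HG (1.20) were higher with and without auxin. MIR4733HG (1.06, adjusted p = 0.0471) lost its call by DESeq2, with library sizes alone, without control library 1 or 2 and without each DIS3-AID library. Host genes of snoRNAs were higher in 14 of 31 tested (45.2%), among them CCDC26 (1.30), SNHG9 (0.87) and SNHG25 (0.81), and lower in 3, a count that was 0 without control library 2 or DIS3-AID library 1 and 5 without control library 3. Of the 31 host genes 29 are annotated as lncRNAs. TMEM107 (1.22), one of the 2 annotated as coding, shares an exon with SNORD118 on the same strand, so its value is not separate from that of the snoRNA. Of 17 tested nuclear lncRNAs 6 were higher and 1 lower: PVT1 (0.51), LINC-PINT (0.42) and FTX (0.33) were among the higher, and CHASERR was lower (-0.43). MALAT1 was not called (0.19, adjusted p = 0.0946).

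Replication-dependent histone genes, which make unspliced mRNAs ending in a stem-loop rather than a poly(A) tail, were higher as a group. Of 42 tested, 24 (57.1%) were higher under auxin, against 18.9% of all features, and none lower by edgeR (0 at an unadjusted p under 0.05, 0 by DESeq2). The median log2 difference was 0.37 against -0.03 without auxin, where 1 was higher and 1 lower. The change with auxin was called positive for 9 (21.4%, against 8.54% of all features) and negative for none. The summed level was 134, 121 and 97.7 CPM in the control line and 162, 161 and 143 CPM in the clone. H2BC6 was at 1.85, 1.72 and 1.49 CPM against 3.0, 3.46 and 2.85 CPM (log2 0.86, SE 0.12, adjusted p = 1.58e-05), and H2BC4 at 7.34, 6.39 and 5.77 CPM against 10.1, 10.4 and 10.1 CPM (log2 0.65). H2BC11 and H2BC17 both showed 0.57. Differences were modest in size, and no member reached 2-fold.

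The histone cluster on chromosome 6 was also where the highest run of coding genes lay. Over 1429 windows of 20 neighbouring coding genes the medians ran from -0.54 to 0.37, and the highest was the window from H3C1 to H3C6 (chr6:26020490-26227473), with -0.06 without auxin. The lowest was on chromosome 1 from MR1 to NIBAN1 (-0.54, without auxin -0.26). The polyadenylated histone variants, made outside S phase, showed 2 of 11 higher and 2 lower, with H2AJ the largest (1.06).

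The S phase genes differed in the other direction from the histone genes. Of 26 replication genes 13 were lower and none higher by edgeR (0 at an unadjusted p under 0.05, 0 by DESeq2), led by the helicase subunit MCM6 (-0.48), cyclin E2 (CCNE2, -0.41), the flap endonuclease FEN1 (-0.39) and E2F1 (-0.36). The lower count was 6 without DIS3-AID library 2, 7 without control library 2 and 8 without control library 1. G2/M genes showed 6 higher, such as BIRC5 (0.34), PLK1 (0.31) and CDC25C (0.28), and 4 lower of 25, the latter 1 without control library 2 or DIS3-AID library 1. Without auxin 12 of them were higher.

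**Figure D4:**
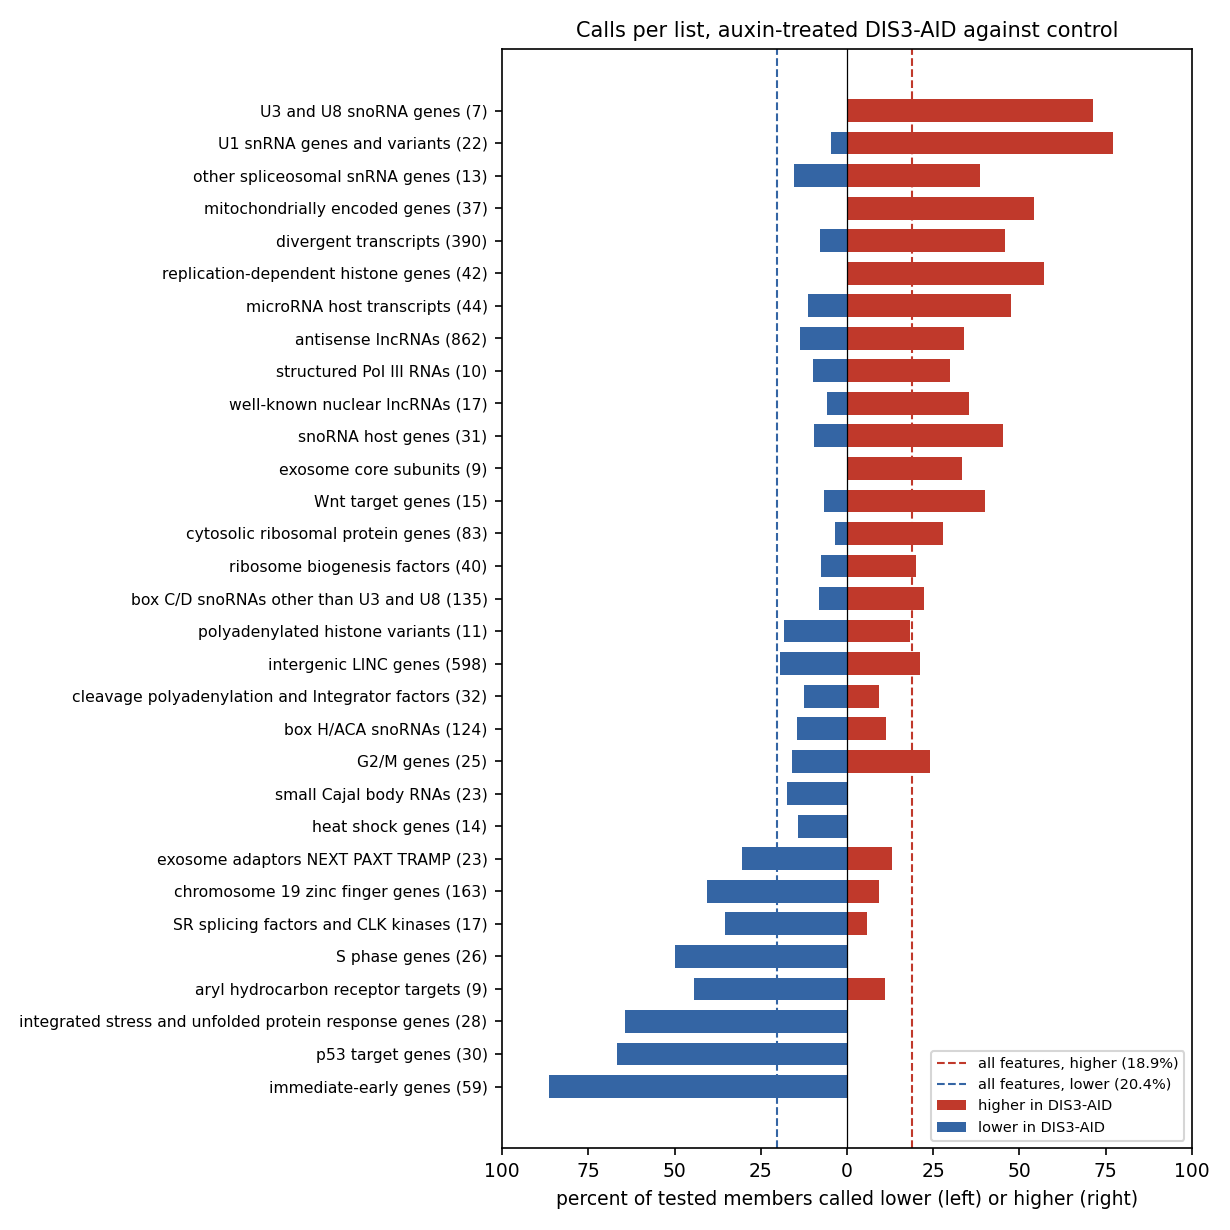
Percent of tested members called higher and lower in the DIS3-AID clone under auxin, by gene list, with the number tested in parentheses. Dashed lines mark the 18.9% higher and 20.4% lower over all features. U1, U3 and U8 genes, histones and divergent transcripts lie above the former and immediate-early, stress and p53 genes above the latter.

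Immediate-early genes, the transcription factors and signalling feedback genes switched on within minutes of growth factor or stress signals, were lower almost throughout. Of 59 tested 51 (86.4%) were lower in the DIS3-AID clone under auxin, against 20.4% of all features. Of the 51, 20 were at least 2-fold lower, and none of the 59 was higher by edgeR (0 at an unadjusted p under 0.05, 0 by DESeq2). The median log2 difference was -0.76. The summed level was 3415, 3240 and 2997 CPM in the control line and 2022, 1974 and 2151 CPM in the clone. Of the 51, 36 were lower without auxin as well, 1 was higher and 14 were not called, and the median without auxin was -0.46. The change with auxin was called for 13 members, all more negative.

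EGR3, a zinc finger factor of this class, had the largest difference. It was at 5.06, 3.82 and 2.47 CPM in the control line and 0.564, 0.51 and 0.955 CPM in the clone (log2 -2.51, SE 0.27, adjusted p = 3.11e-06), against -1.30 without auxin. FOS was at 5.29, 4.52 and 2.35 CPM and 1.13, 0.908 and 1.39 CPM (log2 -1.85, SE 0.28), and its relative FOSB at 13.7, 10.8 and 5.93 CPM and 2.05, 1.49 and 2.17 CPM (log2 -2.42, SE 0.34). The orphan nuclear receptor NR4A3 was at 15.8, 12.6 and 6.13 CPM and 2.92, 2.97 and 2.98 CPM (log2 -1.97, SE 0.31). In these 4 genes control library 3 was the lowest control, and every DIS3-AID library still lay below it. For FOS, FOSB and NR4A3 the change with auxin was not called (adjusted p = 0.0743, 0.0621 and 0.379), and for EGR3 it was -1.21 (adjusted p = 0.037).

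**Figure D5:**
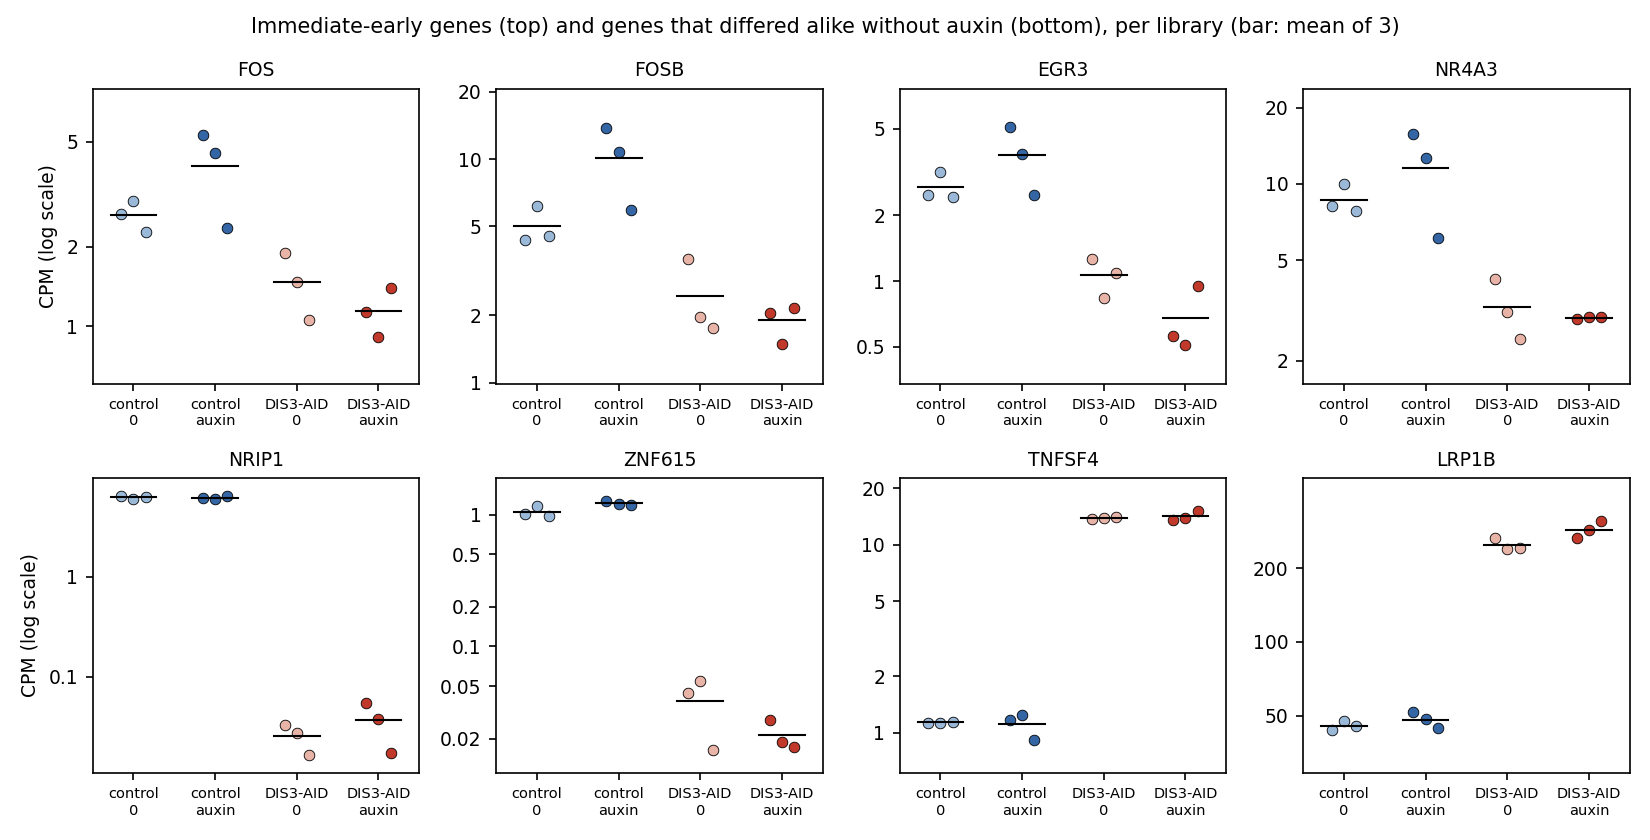
Level (CPM, log scale) of 4 immediate-early genes (top) and 4 genes that differed alike without auxin (bottom) in each of 12 chromatin libraries, with a bar at the mean of 3 and the label 0 for without auxin. For FOS, FOSB, EGR3 and NR4A3 the control libraries with auxin are spread widely, while NRIP1, ZNF615, TNFSF4 and LRP1B separate by line alone.

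Stress and damage response genes were lower to a smaller extent. Of 28 genes of the integrated stress and unfolded protein responses 18 (64.3%) were lower and none higher by edgeR (0 at an unadjusted p under 0.05, 0 by DESeq2), with a median of -0.28 against -0.35 without auxin. Asparagine synthetase (ASNS) was at 15.3, 15.3 and 13.1 CPM in the control line and 8.11, 9.53 and 9.84 CPM in the clone (log2 -0.68, SE 0.087, without auxin -0.52), and the transcription factor DDIT3 showed -0.76. Of 30 p53 targets 20 (66.7%) were lower and none higher by edgeR (0 at an unadjusted p under 0.05, 0 by DESeq2, 1 without control library 3). The cell cycle inhibitor CDKN1A was at 20.7, 18.0 and 19.7 CPM and 12.4, 12.2 and 12.6 CPM (log2 -0.65, without auxin -0.63). PLK3 was at 38.5, 34.6 and 39.1 CPM and 19.6, 18.0 and 20.3 CPM (log2 -0.95, without auxin -0.39), with a change with auxin of -0.56 (adjusted p = 0.0013).

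Heat shock genes differed mainly without auxin. Without auxin 14 of 14 tested were lower in the clone, with a median of -0.64. Under auxin 2 were lower, HSPA4 (-0.33) and DNAJB1 (-0.30), and the median was -0.06. DNAJB1 lost its call without control library 1, and the lower count was then 1. None was higher by edgeR (2 at an unadjusted p under 0.05, 0 by DESeq2, 1 without control library 3), and the change with auxin was called positive for 11. Their summed level without auxin was 1325 CPM ± 49.5 (SD, n = 3) in the control line and 867 CPM ± 67.9 in the clone, and with auxin 929 CPM ± 55.3 and 895 CPM ± 42.5. HSPA1A and HSPA1B had too few counts to be tested.

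Smaller lists added single genes. Of the aryl hydrocarbon receptor targets, 1 of 9 was higher (ALDH3A1, log2 1.58; 2 without control library 3) and 4 lower, among them CYP1A1 (-0.30, adjusted p = 0.0425), whose call was lost without control library 1 or 2 and without DIS3-AID library 1 or 2. Of 15 Wnt targets 6 were higher and 1 lower, including NKD2 (1.31, on 23 and 55 counts), AXIN2 (0.77) and RNF43, which was at 405, 434 and 442 CPM in the control line and 682, 714 and 714 CPM in the clone (log2 0.72), while TNFRSF19 was lower (-0.80). Without auxin 7 of the 15 were higher and 2 lower, with a median of 0.24 against 0.07 under auxin. Of the 7 called under auxin, 4 were called alike without it, and AXIN2 showed 0.65 there. Of 17 SR splicing factors and CLK kinases 6 (35.3%) were lower, such as SRSF6 (-0.44) and TRA2B (-0.33), against 27.4% of all coding genes. Without auxin 8 (47.1%) were lower, against 21.9% of coding genes, with SRSF6 at -0.21 and TRA2B at -0.36. The change with auxin was called negative for none and positive for 2. Of 83 ribosomal protein genes 23 (27.7%) were higher, among them RPL3L (1.86, with means of 0.229 and 0.819 CPM) and RPS28 (0.39). There were 3 lower, which was 6 without control library 3. Without auxin the direction was the other way, with 8 higher and 23 (27.7%) lower, against 17.4% of all features lower. The change with auxin was called positive for 16 (19.3%, against 8.54% of all features) and negative for 1.

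The exosome's own genes differed little apart from DIS3. Of the 9 core subunit genes 3 were higher, EXOSC1 (0.36), EXOSC6 (0.22) and EXOSC4 (0.22). The higher count was 1 without control library 2 or with no filter on low counts. EXOSC6 lost its call without control library 2 or 3 or DIS3-AID library 3, and EXOSC4 (adjusted p = 0.0407) was called in only 2 of the 12 alternative analyses. The cytoplasmic paralogues DIS3L (0.19) and DIS3L2 (0.20) were slightly higher, and DIS3L was not called without control library 1 or DIS3-AID library 1. Of 23 adaptor genes of the NEXT, PAXT and TRAMP complexes, which bring RNAs to the exosome, 7 (30.4%) were lower, near the 27.4% of all coding genes. They included RBM7 (-0.41), SRRT (-0.34) and PABPN1 (-0.31). There were 3 higher, including ZCCHC7 (0.27), whose call was lost without control library 1 or 3 or DIS3-AID library 2 or 3. The lower count was 4 without control library 2 or DIS3-AID library 1, and the higher count was 0 or 1 without any one of control libraries 1 and 2 and DIS3-AID libraries 1 and 2. Without auxin 6 adaptor genes were lower and 1 higher. Of 32 cleavage, polyadenylation and Integrator genes 3 were higher and 4 lower.

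Mitochondrially encoded genes were higher in the clone in both states: 20 of 37 (54.1%) under auxin and 23 without it, with medians of 0.45 and 0.61. None was lower under auxin by edgeR (0 at an unadjusted p under 0.05, 0 by DESeq2, 1 without control library 3). Their sum was 2886, 2876 and 1940 CPM in the control line and 3633, 3096 and 3593 CPM in the clone, with control library 3 the lowest.

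Many of the largest differences were of this kind, present in the clone before auxin. The pseudogene AZGP1P2 on chromosome 7 had 5 counts in the 3 control libraries and 2884 in the 3 DIS3-AID libraries, or 0.029, 0.0273 and 0.0199 CPM against 16.4, 15.6 and 15 CPM (log2 9.15, without auxin 8.75). The TNF family ligand TNFSF4 was at 1.17, 1.24 and 0.916 CPM and 13.6, 13.9 and 15.1 CPM (log2 3.65, without auxin 3.61). The large receptor gene LRP1B was at 51.5, 48.5 and 44.5 CPM and 266, 287 and 311 CPM (log2 2.58, without auxin 2.45). Of the 8 coding genes named as higher, SLC5A1, RERG, SPARC, NRG1, TRABD2B and HS6ST3 completed the set, with log2 differences from 2.13 to 3.45, and all 8 were called higher without auxin too.

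Among the lower coding genes NRIP1 had the largest such difference. This nuclear receptor corepressor gene was at 6.14, 5.94 and 6.45 CPM in the control line and 0.0551, 0.0378 and 0.0174 CPM in the clone (log2 -7.27, without auxin -7.78). Neighbouring RNAs on chromosome 21 were low with it: the overlapping lncRNA AF127577.4 (chr21:14818843-15014430) was at 4.06, 3.78 and 4.58 CPM and 0.248, 0.208 and 0.121 CPM, and LINC02246 (chr21:14819699-14918552) had 72 counts in the control line and 0 in the clone. With 3 counts over the group as the floor, LINC02246 was at least 22.8-fold lower. The genes to either side were less affected, HSPA13 with -0.66 and USP25 with -0.23.

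Zinc finger genes of chromosome 19 were lower in 66 of 163 tested (40.5%) under auxin and higher in 15 (9.2%), with a median of -0.11. Without auxin 34 (20.9%) were lower and 30 (18.4%) higher, with a median of 0.01, and the change with auxin was called negative for 25 and positive for 4. The lowest value was that of ZNF615, at 1.26, 1.2 and 1.19 CPM against 0.0275, 0.0189 and 0.0174 CPM (log2 -5.70, without auxin -4.63), and ZNF850 (-3.36).

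Of 14 tested markers of the colon epithelium 5 were lower and 1 was higher under auxin, and 3 were lower and 2 higher without it. HNF4A, a regulator of intestinal and liver genes, was at 14.7, 13.8 and 14.2 CPM in the control line and 5.62, 5.99 and 5.4 CPM in the clone (log2 -1.33, without auxin -1.32). The epithelial factor ELF3 was at 6.06, 5.26 and 5.65 CPM and 2.7, 1.53 and 2.48 CPM (log2 -1.32), but not without auxin (0.24), a change of -1.56 (adjusted p = 3.83e-05). The summed level of the colon markers was 521, 472 and 481 CPM against 481, 449 and 431 CPM, which overlap. The few detected endothelial markers summed to 6.87, 7.02 and 7.85 CPM against 5.93, 5.71 and 5.62 CPM, and the fibroblast markers to 21.1, 18.1 and 18.5 CPM against 15.3, 14.3 and 15 CPM. Their part in the other differences was not tested.

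Some genes reversed between the states. TAF7, a subunit of the general transcription factor TFIID, was at 9.43, 8.03 and 9.02 CPM in the untreated control line and 17.8, 18.1 and 15.1 CPM in that line with auxin, while the clone had 22.3, 21.9 and 20.3 CPM without and 11.9, 9.51 and 9.82 CPM with auxin. The line difference was thus 1.28 without auxin and -0.71 with it. AC244517.11 (-2.50), C2orf74 (-2.10), ASTL (-2.03), LINC01389 (-2.0) and AL031289.1 (-1.85) showed the other large negative changes with auxin. In the control line itself 2253 features (9.02%) were higher and 1989 (7.97%) lower with auxin than without.

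The share of genes called higher or lower varied with the number of annotated exons. Of 324 tested coding genes with a single exon 19.8% were higher and 10.8% lower, and of 2944 with at least 21 exons 14.7% were higher and 30.8% lower. Without auxin the shares were 8.95% and 16.4% for single-exon genes and 16.2% and 26.2% for those with at least 21 exons. Single-exon genes made up 2.93% of the higher coding genes, 0.873% of the lower ones and 2.21% of all tested. For lncRNAs with a single exon the shares were 24.2% higher and 7.63% lower of 1114, and with 11 to 20 exons 17% and 24.5% of 282. The lncRNAs at least 2-fold higher had a median span of 3.79 kb, against 7.78 kb for all tested lncRNAs.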

How the data were processed

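The authors deposited raw counts of reads for each feature and library, made per the submitters' processing notes with STAR 2.7.3a, Cufflinks 2.2.1 and featureCounts 2.0.0 on hg38; their settings are not given in the sources used here. From these counts the 12 chromatin libraries were fitted as 4 groups in edgeR 4.0.16 (R 4.3.3), after TMM scaling and a filter on low counts (filterByExpr, min.count 10), with robust quasi-likelihood F tests and Benjamini-Hochberg adjustment over all 24966 features, at a threshold of 0.05. To the line difference under auxin the untreated groups add only through the scaling, the choice of features tested and the estimate of spread (biological coefficient of variation 6.5%). Totals were 50.3 to 139.0 M counts. No libraries were duplicates (chi-square per degree of freedom 4.7 to 23.77). On simulated data with 24580 features tested, 97 of 100 changes of 2-fold and 82 of 100 of 1.5-fold were recovered, with 10 false calls. The simulation gave every feature the same spread (6.5%) and changed only features above a minimum of counts. Its rates therefore do not carry over to features at low levels or with more scatter, nor to data where many features differ. Classes, symbols and positions came from GENCODE 29, with newer symbols from a table of names.

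Named features were DIS3; the 10 non-coding and 8 coding features highest and the 8 features lowest by log2 difference among those called, not overlapping and at least 1 CPM in the higher group; the 6 largest called alike without auxin at 5 CPM or more; the 6 highest and 6 lowest changes with auxin; and up to 4 members per list. Those that repeat a pattern are left out of the text. Members and lists were chosen with earlier results of these data known. List counts carry no test of their own and are read against the share of all features. Alternatives were RLE factors, library sizes alone, no filter, DESeq2 1.42.0, the 6 libraries alone, a replicate block and each library left out. Promoters came from RefSeq's table on GRCh38.p14.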

Additional observations from a re-analysis of the deposited data

Results flagged for a closer look

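For 64 of the named features the line difference (DIS3-AID over control) under auxin differed from that without auxin by the test of the change itself, edgeR's quasi-likelihood test with Benjamini-Hochberg adjustment over all features, where 17.7% of features passed. The values below are that change in log2. No cause of any of them was tested.

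Small structured RNAs changed in the positive direction. Among U1 variants the changes were 3.55 for RNVU1-22, 3.39 for RNVU1-25, 3.23 for RNVU1-14 with 3.16 for the overlapping AC245014.3, and 2.99 for RNVU1-34. Among the U3 and U8 genes they were 3.12 for SNORD118, 3.03 for the chromosome 17 U3 copy, 2.56 and 2.58 for the 2 records of SNORD3D and 2.11 for SNORD3B-2. Other small RNAs showed 2.32 for RNU5F-1, 2.25 for RNU6-2, 2.0 for RNU11, 2.17 for BCYRN1 and 2.17 for VTRNA1-3. The modification guides changed less, by 1.09 for SNORD4B, 0.97 for SNORD14B, 0.66 for SNORD23, 0.96 for SNORA50C, 0.87 for SNORA69 and 0.76 for SNORA11B.

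Long non-coding transcripts showed 3.25 for SETD4-AS1, 2.34 for FCHO2-DT, 2.29 for C1orf21-DT and 1.84 for JTB-DT. Of these, only JTB-DT reached the level needed for testing outside the DIS3-AID libraries with auxin. Host transcripts showed 1.85 for MIR4733HG, 1.45 for MIR378D2HG, 1.17 for TMEM107, 0.76 for SNHG25 and 0.45 for CCDC26. Nuclear lncRNAs showed 0.43 for LINC-PINT, 0.36 for FTX and 0.34 for PVT1. CARMAL, a lncRNA higher in the clone at both states, showed -0.76.

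Positive changes in coding genes were 1.19 for RPL3L, 1.08 for the histone variant H2AJ, 0.66 for H2BC4, 0.59 for H2BC6, 0.57 for DNAJB1, 0.49 for NRG1, 0.47 for ZCCHC7, 0.44 for DDX10, 0.35 for RPS28, 0.33 for TRABD2B, 0.32 for EXOSC6, 0.31 for RPL14, 0.27 for RNF43 and 0.25 for CSTF1.

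Negative changes were -2.50 for AC244517.11, -2.10 for C2orf74, -2.03 for ASTL, -2.0 for LINC01389, -1.98 for TAF7 and -1.85 for AL031289.1. The others were -1.56 for ELF3, -1.21 for EGR3, -1.03 for TNFRSF19, -0.63 for E2F1, -0.56 for PLK3, -0.50 for MCM6, -0.46 for CDC25C, -0.39 for LRAT, -0.35 for RPS27L and -0.24 for SRRT.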

How the results depend on the processing

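The counts of features higher and lower under auxin (4709 and 5093) stayed within 1.5 times of these values in every alternative run: 4845 and 4932 with RLE factors, 4365 and 5374 with library sizes alone, 4784 and 5033 without the filter, 4330 and 4655 by DESeq2, 4133 and 4457 on the 6 libraries alone. With 1 library left out they ran from 3891 to 5042 and from 4061 to 5226. Same-numbered libraries of the 2 lines under auxin did not deviate together (r = -0.134, -0.049 and -0.467). DIS3-AID library 3 and control library 2 had r = 0.479. With 3 libraries a group, such values cannot show whether any libraries were prepared together. A fit with the replicate number as a block called 4451 and 4804. Without auxin, the counts with 1 library left out ran from 2632 to 3902 higher and from 3073 to 4594 lower. For the change with auxin they ran from 1410 to 2420 more positive and from 1649 to 2531 more negative, where 1410 (against 2131) came without DIS3-AID library 2. Scaling by library sizes alone moved the share of higher calls from 46.6% to 58.8% without auxin and from 48.1% to 32.2% for the change with auxin. Of 1893 values of the 158 named features under alternatives, 1823 kept their direction and side of the threshold, 70 fell below it and 0 reversed. At these depths, features under about 10 counts in a library were mostly not tested, and those at low levels, such as many divergent transcripts, have wide errors.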

Other observations

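Runs of neighbouring coding genes differed together in some places. Of 1429 windows of 20 genes, 75 had a median log2 difference beyond 0.25 in either direction under auxin. On chromosome 5 the window from SLC45A2 to LIFR (chr5:33944616-38608354) had 16 of 20 genes lower, with a median of -0.45 under auxin and -0.48 without it. The overlapping window from DROSHA to SPEF2 (chr5:31400497-35814611) had 18 of 20 lower, with medians of -0.40 and -0.46. On chromosome 1 the window from PTGFR to CCN1 (chr1:78303884-85583962) had medians of -0.48 and -0.23. On chromosome 19 the window of zinc finger genes from AURKC to ZNF211 (chr19:57230802-57642779) had 14 of 20 lower and medians of -0.41 and -0.15. Among higher windows, that from MYBPC2 to KLK13 (chr19:50432903-51065114) had 11 of 20 higher and medians of 0.27 and 0.13.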
